A study of Mus musculus with 3 samples.

Results

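A set of 10 receptor tyrosine kinase genes typical of fibroblasts was followed across the 3 arrays of the series: Pdgfra, Pdgfrb, Fgfr1, Fgfr2, Egfr, Igf1r, Insr, Met, Axl and Ddr2. Members were all probe sets whose platform annotation gave exactly 1 gene symbol and that symbol was one of these names, which came to 32 of the 45101 probe sets on each array. A probe set is a group of short oligonucleotides whose signals are summarised into 1 value for a transcript. NIH3T3, an established mouse fibroblast cell line, carried either the empty vector (2 arrays, here empty vector 1 and empty vector 2) or a vector for a short hairpin RNA (shRNA) against Retsat, the retinol saturase gene (1 array). The empty-vector cells were kept in DMEM with calf serum, had no treatment and are labelled as showing basal expression. The RetSat shRNA cells are labelled as highly resistant to t-BHP (tert-butyl hydroperoxide, an oxidant). Their growth conditions, any exposure to t-BHP and whether they were 1 clone or a pool are not stated in the labels. Separate cultures are not stated for the empty-vector arrays either, so their spread may be technical.

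A receptor tyrosine kinase spans the plasma membrane, binds a growth factor or matrix protein outside the cell and phosphorylates tyrosines on itself and on adaptor proteins inside it. The adaptors carry the signal to the RAS-ERK and PI3K-AKT routes, which drive growth, survival and migration, and a set of ERK-induced proteins feeds back to damp the receptors. In cultured fibroblasts the PDGF, FGF and IGF receptors answer the growth factors of serum, and MET, AXL and DDR2 answer hepatocyte growth factor, GAS6 and fibrillar collagen.

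The target gene went with the label. The brighter Retsat probe set read 416 on empty vector 1, 496 on empty vector 2 and 69.5 on RetSat shRNA. Its log2 difference from the empty-vector mean was -2.54, yet the test used below did not call it. A gene that the test does not call is therefore not shown to be unchanged. The cells carried a fibroblast profile on every array: all 10 fibroblast markers examined passed the filter on dim signals given below. Col1a1 read 6803, 8929 and 9040 and Vim up to 18225. Lum read only 85.3, 70.9 and 74.9, no brighter than some markers of other cell types. All 4 endothelial and all 3 skeletal muscle markers missed the filter. Of the 5 epithelial markers 3 had a probe set that passed it, at no more than 121.8. Macrophage and leukocyte markers peaked at 142, and of the adipocyte markers Fabp4 read up to 487 while Adipoq read at most 24.8. At 1 of its probe sets Fabp4 was highest with the shRNA (155, 250 and 410.4), and its part in the receptor values was not tested. One control array stood apart. Over the 19518 tested probe sets the SD of the log2 difference was 0.79 between empty vector 1 and empty vector 2 and 0.81 between empty vector 1 and RetSat shRNA, but 0.38 between empty vector 2 and RetSat shRNA. Empty vector 2 and RetSat shRNA carry the same number, 2, in their labels, which do not say what it stands for, and its part in their likeness was not tested. Because of that spread, each comparison below is given against each empty-vector array.

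No receptor probe set passed the test of RetSat shRNA against empty vector, whose spread came from 2 unlike control arrays. Of the 32 member probe sets, 24 passed the filter, a mean log2 signal at or above the median of all probe sets, and every one of the 10 genes kept at least 1. On log2(signal + 10.2), where 10.2 is the 25th percentile of all deposited values, 0 of the 24 passed limma at an adjusted p of 0.05, and 0 met the rule of size, which asks for a 2-fold difference in the same direction from each control array. Over all tested probe sets limma called 0.0% (201 had an unadjusted p under 0.05, none of them a member), and the rule of size took 0.149% on the higher side and 0.932% on the lower side. The empty-vector arrays themselves were at least 2-fold apart at 7 of the 24 probe sets, against 15.2% of all tested probe sets, and at those 7 RetSat shRNA differed from empty vector 2 by -0.40 to -0.06 on the log2 scale. In such bulk samples fewer cells carrying a transcript and less transcript per cell cannot be told apart.

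Against empty vector 2, the array it resembled, RetSat shRNA was 2-fold different at 0 of the 24 receptor probe sets (2.68% of all tested probe sets), with differences of -0.63 to 0.68 on the log2 scale. It lay below empty vector 2 at 19 of the 24 probe sets, against 51.3% of all tested probe sets, and the median difference was -0.15 against -0.01 over all. Of the 14 member probe sets with a signal of at least 200 on every array, 12 lay below empty vector 2, against 48.9% of all tested probe sets that bright. In 6 of the 10 genes (Pdgfra, Pdgfrb, Insr, Met, Axl and Ddr2) every tested probe set did, against 36.5% of all tested genes, and Insr, Met and Axl had 1 tested probe set each. Against empty vector 1 the differences ran from -1.99 to 1.01 and 11 of 24 were negative. RetSat shRNA was below both empty-vector arrays at 9 of the 24 probe sets (29.2% of all tested probe sets), above both at 3 (30.8%) and between them at 12 (40%). Without empty vector 1 these become 19 below and 5 above. Without empty vector 2 they become 11 below and 13 above.

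**Figure D1:**
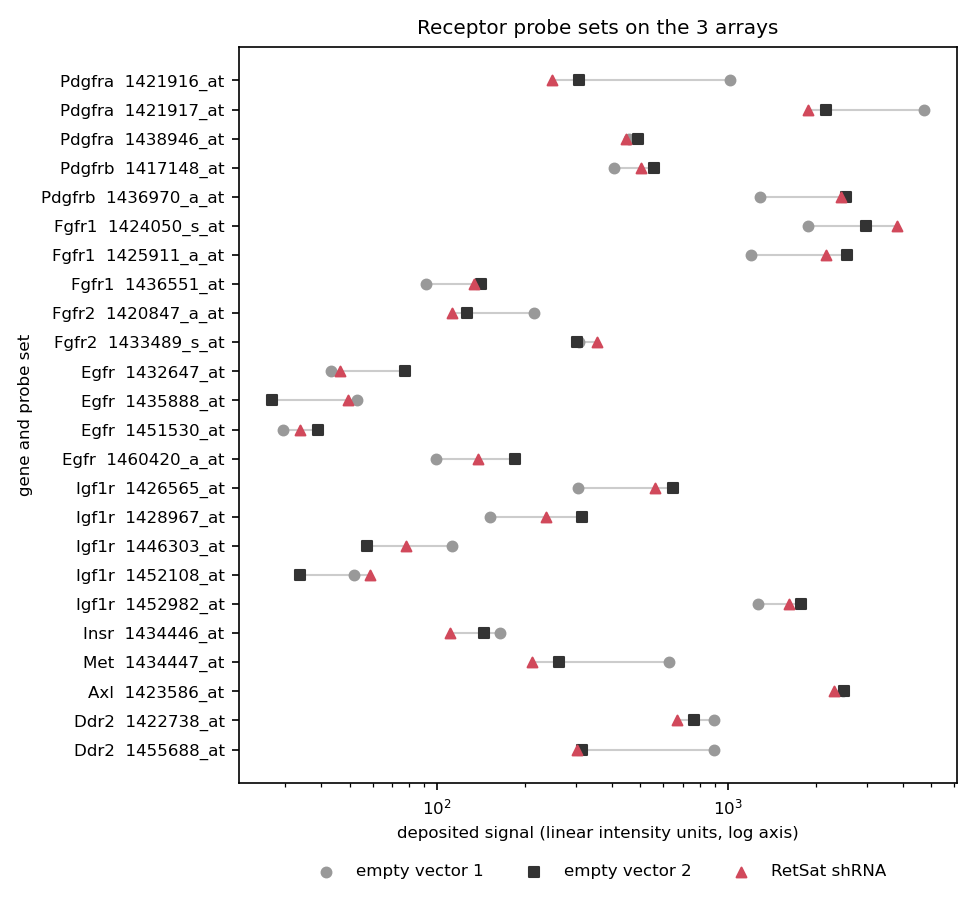
Deposited signal (log axis, linear intensity units) of the 24 tested receptor probe sets on empty vector 1 (circles), empty vector 2 (squares) and RetSat shRNA (triangles), with a grey line joining the lowest and highest of the 3 arrays. Squares and triangles lie close together in most rows, while the circle stands at least 2-fold to the right of the square for both probe sets at the top (Pdgfra), for Met and for the lower Ddr2 row, and at least 2-fold to its left for 1 Fgfr1 and 2 Igf1r rows; signals of different probe sets are not comparable with each other.

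The 7 probe sets at which the control arrays were at least 2-fold apart comprised 4 that were high on empty vector 1 (2 of Pdgfra, 1 of Met and 1 of Ddr2) and 3 that were low on it (2 of Igf1r and 1 of Fgfr1). Among all 19518 tested probe sets, 2270 were at least 2-fold higher on empty vector 1 and 691 at least 2-fold lower, so neither direction is particular to these genes. The sequences just upstream of a RefSeq transcription start are shown for Pdgfra, Met and Igf1r as description only. Between the control arrays Pdgfra was level at a further probe set, and Igf1r went the other way at its dim ones. A link of sequence to signal was not tested. Of the 10 receptor genes, 7 had such a sequence in the table used. Each is the 250 bases before the start, 5′ to 3′, on the plus strand of GRCm38.p6, with GC boxes (GGGCGG, searched on both strands) in capitals. For Igf1r this start is the outer start of the gene (67952257). For Pdgfra and Met the sequence lies inside the annotated gene, which begins at 75151322 and 17463349. The sequences therefore stand at unlike positions. The search for TATAAA on both strands found 0 matches in these 3.
Pdgfra, chr5:75152001-75152250: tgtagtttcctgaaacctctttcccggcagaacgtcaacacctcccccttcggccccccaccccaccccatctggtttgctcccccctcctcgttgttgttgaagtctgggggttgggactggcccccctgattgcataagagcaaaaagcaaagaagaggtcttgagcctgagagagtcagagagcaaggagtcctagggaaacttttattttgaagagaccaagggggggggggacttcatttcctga
Met, chr6:17463707-17463956: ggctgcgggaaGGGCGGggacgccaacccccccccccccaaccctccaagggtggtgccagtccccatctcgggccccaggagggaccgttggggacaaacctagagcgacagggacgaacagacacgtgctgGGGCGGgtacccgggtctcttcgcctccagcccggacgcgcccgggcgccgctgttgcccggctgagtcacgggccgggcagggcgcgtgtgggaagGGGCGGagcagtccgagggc
Igf1r, chr7:67952007-67952256: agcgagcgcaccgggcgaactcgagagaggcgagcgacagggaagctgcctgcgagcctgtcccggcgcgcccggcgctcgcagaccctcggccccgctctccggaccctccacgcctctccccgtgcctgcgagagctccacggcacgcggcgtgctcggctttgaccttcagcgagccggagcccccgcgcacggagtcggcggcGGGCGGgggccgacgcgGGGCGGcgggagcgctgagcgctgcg
The Igf1r sequence held 2 GC boxes and 42 CpG dinucleotides at a GC content of 77.6%, the Met sequence held 3 and 24 at 74%, and the Pdgfra sequence held 0 and 4 at 54.4%. Over all 32851 promoter sequences of this length in the table, 32.7% held a GC box, 12.4% held TATAAA, and the median was 6 CpG dinucleotides at 52.4% GC. The Ddr2 sequence, not printed, held 0 GC boxes, 1 TATAAA and 1 CpG dinucleotide at 37.6% GC. It too lies inside its gene, which is read from the minus strand and has its outer end at 170110836. No promoter activity was measured here.

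The PDGF receptors, which bind PDGF dimers and mark mesenchymal cells, went in opposite directions between the control arrays at 2 of 3 Pdgfra and both Pdgfrb probe sets, while RetSat shRNA differed from empty vector 2 by -0.30 to -0.05 on the log2 scale. The brightest Pdgfra probe set (1421917_at) read 4733 on empty vector 1, 2172.5 on empty vector 2 and 1887 on RetSat shRNA. The second (1421916_at) read 1016, 307 and 248. Both were high on empty vector 1 alone, and RetSat shRNA was the lowest array in each. These probe sets were designed on the same sequence record, so they are not independent readings of the gene. The third Pdgfra probe set (1438946_at), from another record, read 457, 491 and 447, with the 3 arrays level. Differences of RetSat shRNA from the mean of the empty-vector arrays were -0.76 (SE 0.62), -1.15 (SE 0.75) and -0.08 (SE 0.49) in that order, each with an adjusted p of 1 in limma. The third reversed to 0.02 when the arrays were centred on their medians. Pdgfrb, which binds PDGF-BB, was the reverse. Its brighter probe set (1436970_a_at) read 1287 on empty vector 1, 2548 on empty vector 2 and 2455 on RetSat shRNA, and the other (1417148_at) read 404, 557 and 503. RetSat shRNA lay between the empty-vector arrays at both probe sets, with log2 differences from empty vector 2 of -0.05 and -0.14.

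Fgfr1, the main FGF receptor of mesenchymal cells, held the brightest probe set on RetSat shRNA that exceeded both empty-vector arrays. That probe set (1424050_s_at) read 1880.2 on empty vector 1, 2975 on empty vector 2 and 3809 on RetSat shRNA. The empty-vector mean was 2427.5 ± 774 (SD, n = 2), and RetSat shRNA stood above both arrays by 1.01 and 0.36 on the log2 scale, with a difference from their mean of 0.68 (SE 0.54, limma adjusted p = 1). It stayed above both after centring (1.18 and 0.39) and after quantile normalization (0.90 and 0.32). The gene's other probe sets did not share this order. One (1425911_a_at) read 1204, 2565 and 2174 and another (1436551_at) read 91.6, 142 and 134, and on both RetSat shRNA lay below empty vector 2. All 3 were lowest on empty vector 1. Fgfr2, whose splice forms separate epithelial from mesenchymal FGF signalling, gave discordant probe sets. One (1420847_a_at) read 216, 127 and 112, with RetSat shRNA below both empty-vector arrays, and the other (1433489_s_at) read 307, 302 and 355, with RetSat shRNA above both by 0.20 and 0.23. The third Fgfr2 probe set read 3.2 to 4.8 and was not tested.

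Igf1r, the receptor for IGF1 and IGF2 and a main survival receptor in culture, read lowest on empty vector 1 at its 3 brightest probe sets. The brightest (1452982_at) read 1273 on empty vector 1, 1786 on empty vector 2 and 1621 on RetSat shRNA. The next (1426565_at) read 305, 649 and 562, and the next (1428967_at) read 152, 315.5 and 236. RetSat shRNA lay between the control arrays on all 3, nearer to empty vector 2, with log2 differences from it of -0.14, -0.21 and -0.40. The dim probe sets went otherwise: 1446303_at read 113, 57.4 and 78.2, and 1452108_at read 51.9, 33.7 and 58.6, highest on RetSat shRNA. The last of these and 1426565_at come from the same sequence record and differed in direction between the control arrays. Insr, the insulin receptor and closest relative of Igf1r, had 1 tested probe set (1434446_at) at 164, 144.5 and 111. RetSat shRNA was the lowest array there, by -0.52 and -0.35, and the difference from the mean was -0.44 (SE 0.49, limma adjusted p = 1). It remained the lowest after centring (-0.36 and -0.32). The other pair of Insr probe sets read 14.6 to 38 and missed the filter.

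Met, the receptor for hepatocyte growth factor, parted the control arrays in the same direction as 2 Pdgfra probe sets. Its tested probe set (1434447_at) read 626.5 on empty vector 1, 262.5 on empty vector 2 and 213 on RetSat shRNA, high on empty vector 1 alone. The log2 difference of RetSat shRNA was -1.51 with empty vector 1 as the control, -0.29 with empty vector 2 and -0.90 (SE 0.64) with their mean with an adjusted p of 1 in limma. The second Met probe set (1422990_at) missed the filter at 132, 7.9 and 18.8, and was high on the same array. Egfr, the receptor for EGF and its relatives, had 7 probe sets, the most of any member, and all were dim. The highest signal among the 4 tested was 186. The brightest (1460420_a_at) read 99.3 on empty vector 1, 185.5 on empty vector 2 and 138 on RetSat shRNA, and RetSat shRNA lay between the empty-vector arrays at all 4. Of the 3 that missed the filter, 1 (1424932_at) read 74.4, 23.8 and 3.9, which put RetSat shRNA below both arrays by -2.59 and -1.27. It was the only member at least 2-fold from both when the filter was dropped. The tested probe set from the same sequence record (1451530_at) read 29.6, 39 and 33.8, with no such difference.

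Axl, the receptor for GAS6, was level on the 3 arrays. Its tested probe set (1423586_at) read 2482 on empty vector 1, 2508 on empty vector 2 and 2323 on RetSat shRNA. RetSat shRNA was the lowest array by only -0.10 and -0.11 on the log2 scale, and it lay above empty vector 1 (0.07) once the arrays were centred on their medians. The other Axl probe set, of the type that can cross-hybridise, read at most 13.7. Ddr2, a receptor for fibrillar collagen found on mesenchymal cells, gave 2 probe sets that parted between the control arrays. One (1455688_at) read 894 on empty vector 1, 316 on empty vector 2 and 303 on RetSat shRNA, high on empty vector 1 alone, as for Met. The other (1422738_at) read 892, 762 and 665. RetSat shRNA was the lowest array on both, by -1.53 and -0.06 on the first and by -0.42 and -0.19 on the second, and none of the differences from the mean passed limma (-0.79 with SE 0.69 and -0.31 with SE 0.49).

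**Figure D2:**
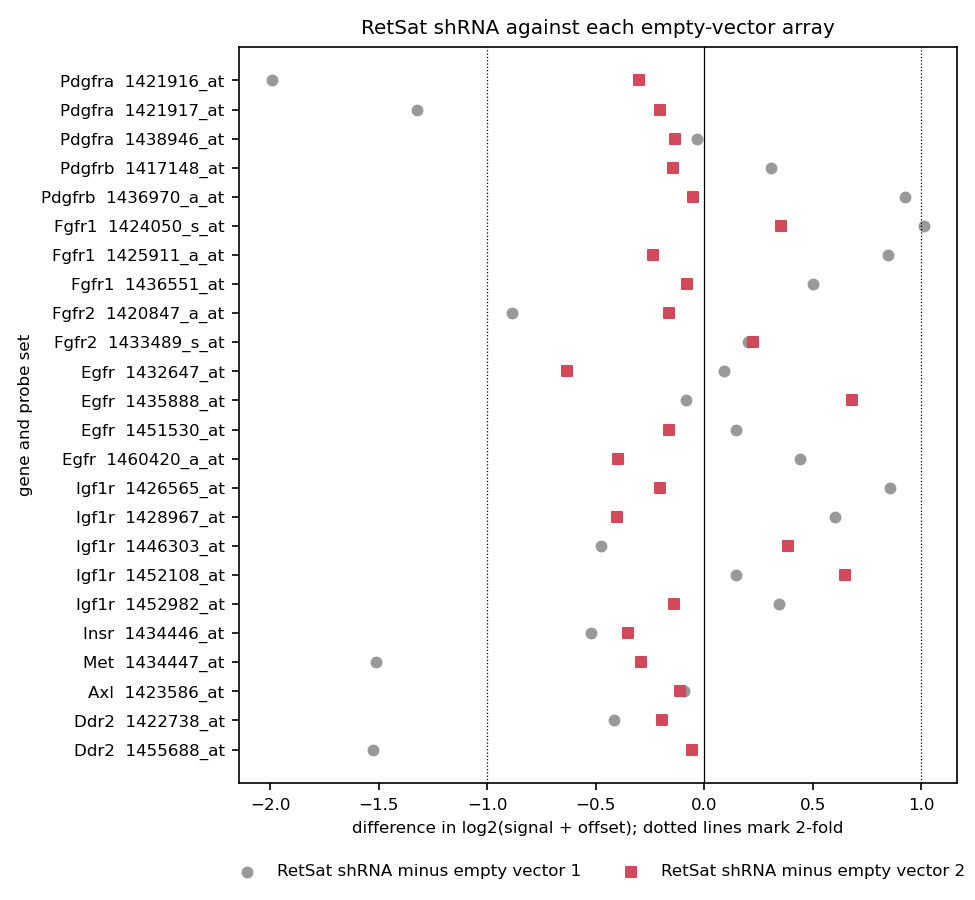
Difference of RetSat shRNA from each control array, empty vector 1 as circles and empty vector 2 as squares, in log2(signal + 10.2) for the 24 tested receptor probe sets, with dotted lines at 2-fold. All squares lie between the dotted lines, from -0.63 to 0.68, while 5 circles lie beyond them: 4 on the left (Pdgfra at 2 probe sets, Met, Ddr2) and 1 on the right (Fgfr1).

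Of the ligands of these receptors, 25 genes had a probe set and 12 passed the filter, with 20 probe sets. The other 13, which include Igf1, Gas6, Fgf2, Egf and Tgfa, read 56.9 or less. RetSat shRNA was above both empty-vector arrays at 4 of the 20 and below both at 3, and 0 passed limma or the rule of size. Over all tested probe sets RetSat shRNA was above both at 30.8% and below both at 29.2%. Among the ligands, Igf2, the embryonic IGF, had the largest difference from the empty-vector mean. It read 94.3 on empty vector 1, 189.7 on empty vector 2 and 286.5 on RetSat shRNA. RetSat shRNA stood above the control arrays by 1.51 and 0.57, and the difference from their mean was 1.04 (SE 0.58, limma adjusted p = 1). Pdgfa, a ligand of Pdgfra, read 213, 333 and 409.6 at one probe set and 269, 473 and 470.4 at the other, lowest on empty vector 1 at both, while its receptor was highest there at 2 of 3. Pdgfc read 474, 406 and 497 at one and 744, 708.5 and 652 at the other, with RetSat shRNA highest in the first and lowest in the second.

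Hgf and its receptor Met were both high on empty vector 1, as were 2270 of the 19518 tested probe sets by at least 2-fold. The 3 Hgf probe sets read 669, 479 and 355 there, 263, 161 and 41.4 on empty vector 2, and 306, 165 and 83.1 on RetSat shRNA. RetSat shRNA lay between the control arrays at all 3, above empty vector 2 by 0.21, 0.03 and 0.85, whereas Met was below it. Fgf7, which acts on an epithelial form of Fgfr2, read 5980.2, 1700.5 and 1760.1 at one probe set (1422243_at) and 5932, 4973 and 5701 at the other (1438405_at), so only the first separated the control arrays. The tested EGF-family ligands, Hbegf and Ereg, stayed within 2-fold over the 3 arrays, with Hbegf at 176, 228 and 220 at its brighter probe set and Ereg at 501, 400.1 and 403. Pros1, a ligand of the AXL family, read 419, 207.5 and 301.5. The collagens that engage Ddr2 read 6803, 8929 and 9040 for Col1a1 and 811, 1357.5 and 1094 for Col3a1 at their brighter probe sets. Fgf10 read 67.1, 67.5 and 58.3, and Ins2, an insulin gene, read 42.1, 56.1 and 44.2 on a probe set that can cross-hybridise.

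**Figure D3:**
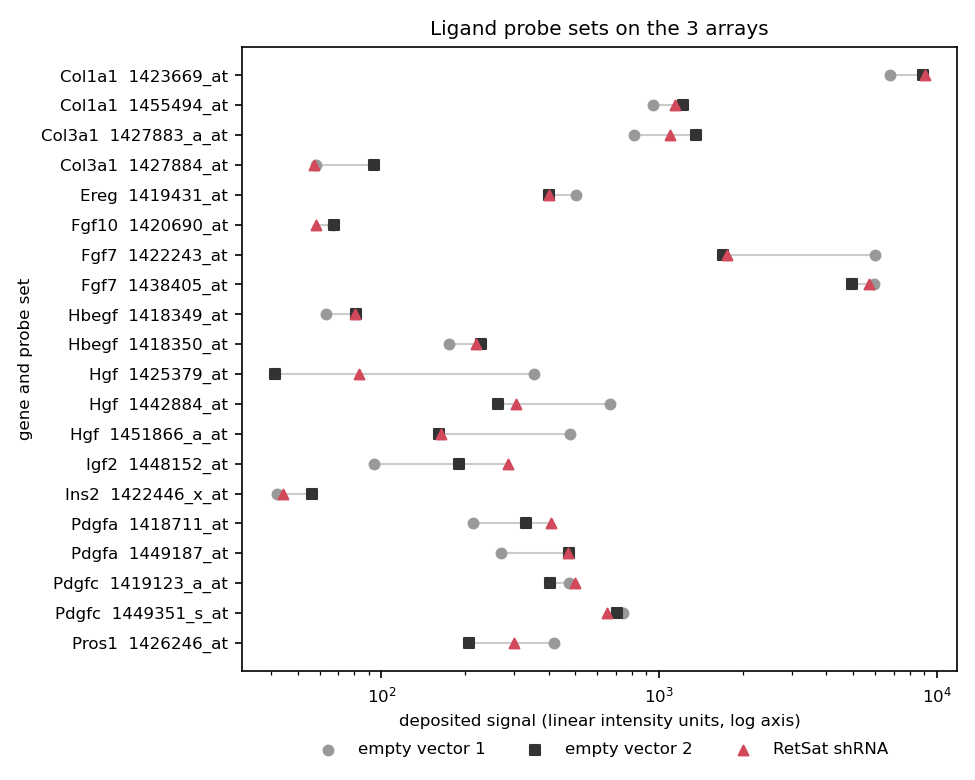
Deposited signal (log axis, linear intensity units) of the 20 tested probe sets of receptor ligands on empty vector 1 (circles), empty vector 2 (squares) and RetSat shRNA (triangles), with a grey line joining the lowest and highest of the 3 arrays. The circle stands to the right in all 3 Hgf rows and far to the right in the upper Fgf7 row, and the triangle is farthest right for Igf2, at 286.5.

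Binding proteins and co-receptors held 34 tested probe sets of 13 genes. RetSat shRNA was above both empty-vector arrays at 9 (26.5%) and below both at 5 (14.7%), against 30.8% and 29.2% over all tested probe sets. The median difference was 0.26 with empty vector 1 as the control but -0.04 with empty vector 2, beside 0.05 and -0.01 over all. Nrp1, neuropilin 1, a co-receptor for VEGF and other growth factors, was lowest with the shRNA at 3 of its 4 tested probe sets. They read 309, 225 and 106.5 (1448944_at), 524, 600.2 and 332 (1448943_at) and 392, 274 and 243 (1418084_at). The first was the list's single probe set at least 2-fold below both, and its difference from the mean was -1.23 (SE 0.51). It met that rule narrowly, with a difference from empty vector 2 of -1.01. After centring (-0.98) and after quantile normalization (-0.94) it fell short of 2-fold. The fourth Nrp1 probe set read 137, 38.5 and 46.7, with RetSat shRNA between the control arrays. Igf2r, which clears IGF2, was lower at both probe sets, at 354, 328 and 217 and at 527, 636 and 446. Sdc3, a heparan sulfate proteoglycan, was higher at both, with the brighter at 88.8, 142 and 203. Igfbp4, which holds IGFs in solution, was above both arrays at 4 of 6 probe sets, the named one at 7302, 7580 and 9209. No probe set of the list passed limma.

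Adaptors and proximal effectors held 60 tested probe sets of 24 genes. Over all tested probe sets RetSat shRNA was above both control arrays at 30.8%, below both at 29.2% and at least 2-fold below both at 0.932%. On this list it was above both at 15 of the 60 probe sets (25%) and below both at 19 (31.7%). None passed limma, and 2 were at least 2-fold below both. Braf, the RAF kinase that couples RAS to MEK, was below both at 6 of its 8 probe sets. The one with the largest smaller difference (1425693_at) read 95.5, 89.4 and 22.6, with a difference from the mean of -1.65 (SE 0.49, limma unadjusted p = 0.0128 and adjusted p = 1). Its brightest (1435434_at) read 366, 222 and 155. The empty-vector arrays were themselves unequal for this gene, with empty vector 1 the higher at 7 of the 8. Rasa1, a RAS GTPase-activating protein, read 69.3, 45.5 and 9.0 at a dim probe set, but its brighter ones (703, 407 and 421, and 597, 283.5 and 320.1) put RetSat shRNA between the control arrays. Akt2 read 24.7, 39.3 and 85.8 at a dim probe set and 453, 711 and 663 at its brightest. The docking protein gene Gab2 read 51.5, 67.9 and 112 at its only tested probe set. Its other probe sets, at 10, 56.2 and 5.1 and at 9.6, 22.4 and 13.9, missed the filter and were not highest on RetSat shRNA.

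Negative feedback and receptor turnover genes held 46 tested probe sets of 21 genes. RetSat shRNA was above both control arrays at 16 (34.8%) and below both at 11 (23.9%), against 30.8% and 29.2% over all tested probe sets. The probe sets of 1 gene often parted. Cblb, a ubiquitin ligase that sends receptors for degradation, read 263, 66.3 and 4.4 at one probe set (1458469_at), a log2 difference from the mean of -3.31 (SE 0.78, limma adjusted p = 1). Limma called this probe set only when the arrays were centred on their medians. There its difference from the mean was -3.21 (SE 0.65), no larger than without centring. The other Cblb probe sets read 94.8, 104 and 123 and 206, 227 and 252, with RetSat shRNA above both control arrays. Spred2, an inhibitor of RAF activation, read 96.5, 98.6 and 24.8 at one probe set and 526, 693.5 and 742 at its brightest, again on opposite sides. Spred1 read 23.8, 26.4 and 57.8 at its dimmest tested probe set, of the type that can cross-hybridise. That probe set was the single one of 7 above both control arrays, while 3 were below both, among them the brightest at 747, 846 and 703. Grb10, an inhibitory adaptor of the insulin and IGF1 receptors, read 189, 68.9 and 35.9 at one probe set and 4487, 4821 and 4637.5 at its brightest. Dusp6, an ERK phosphatase, read 940.3, 869 and 1070.4, and Errfi1, an inhibitor of EGFR, read 1283.5, 1367 and 1593 at its brighter probe set, both highest on RetSat shRNA.

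Transcripts induced by ERK, the output furthest downstream, held 19 tested probe sets of 13 genes (Dusp6 and Spry4 also stand in the feedback list). RetSat shRNA was above both control arrays at 8 (42.1%) and below both at 2 (10.5%), against 30.8% and 29.2% over all tested probe sets. The median difference was 0.19 with empty vector 1 as the control and 0.15 with empty vector 2, beside 0.05 and -0.01 over all. None passed limma or the rule of size. Etv4, an ETS factor, read 62.1, 18.1 and 129, above the control arrays by 0.95 and 2.30. Plaur, the urokinase receptor, read 312, 450 and 564. Spry4 read 37.8, 50.3 and 27.1 at its dimmer probe set, the lowest on RetSat shRNA, and 91.6, 98.4 and 96.5 at the other.

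**Figure D4:**
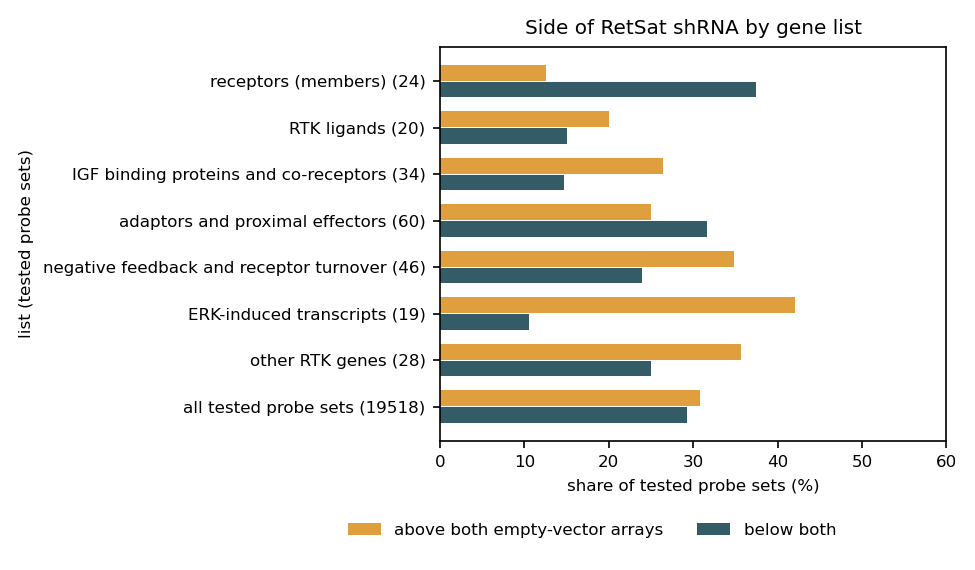
Share of tested probe sets (%) at which RetSat shRNA lay above both empty-vector arrays (orange) or below both (blue), for the receptors, the pathway lists and all tested probe sets, with the number of probe sets in brackets. The receptors show 12.5% above and 37.5% below, all tested probe sets 30.8% and 29.2%, and the ERK-induced list 42.1% and 10.5%.

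The other receptor tyrosine kinase genes gave a frame for these receptors. Of 46 such genes with a probe set, 15 passed the filter, with 28 probe sets, and the 31 others read 72.1 or less. Over the whole series 10843 of 18193 genes passed. All 10 receptors described above did, but they had been picked as typical of fibroblasts, so their count is no result of these data. RetSat shRNA was above both control arrays at 10 of the 28 (35.7%) and below both at 7 (25%). Over all tested probe sets these shares were 30.8% and 29.2%. The empty-vector arrays were at least 2-fold apart at 4 of the 28 (14.3%), against 15.2% of all tested probe sets. Ror2, a WNT5A receptor, read 152, 91.6 and 41 at one probe set and 248, 370 and 361 at the other. Ror1 read 97.4, 55.8 and 35.8, the ephrin receptor Epha4 read 53, 38 and 23.4 at one probe set, and Tyro3, a relative of Axl, read 116, 51 and 33.8 at one probe set and 84.5, 96.1 and 112 at the other. All 4 named probe sets that were lowest on RetSat shRNA were highest on empty vector 1. None passed limma or the rule of size.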

How the data were processed

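The authors deposited linear intensities, 1 per probe set and array, which they had scaled to a common level, since the trimmed mean was 250 on each array; software, summarisation and detection calls are not stated in the labels. Signals ran from 0.1 to 30189.8, and the number of arrays limits precision. Of 45101 probe sets, 34945 had exactly 1 gene symbol and were used, named from the platform annotation (0 symbols changed by lookup against GRCm38.p6). Values were taken as log2(signal + 10.2) and fold changes understate those of dim probe sets. Probe sets with a mean log2 signal at or above the median over all probe sets (19518) were fitted over the 3 arrays with lmFit and eBayes of limma 3.58.1 in R 4.3.3, two-sided, with Benjamini-Hochberg adjustment over all of them. The fit has 1 residual degree of freedom, from the empty-vector arrays, and assumes the lone RetSat shRNA array varies like them. A rule of size (2-fold from both empty-vector arrays, same direction) carries no p-value. The fit was tested on simulated data with 1 common spread, that between the empty-vector arrays, which does not test that assumption.

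The members and lists were chosen with earlier results of these data known. Named are Retsat, all members, every tested ligand and, per other list, up to 4 genes ranked by the smaller difference from the empty-vector arrays, beside cell type markers; other probe sets of those genes, and Errfi1 and Fabp4, were added after their values were seen. Lists are described by counts. Of the listed genes, 6 adaptors and 5 others were not analysed here. Promoter sequences are RefSeq's (GRCm38.p6). Alternatives were the offset, the filter, centring, quantile normalization, 1 probe set per gene, a robust prior and leaving out either empty-vector array.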

Additional observations from a re-analysis of the deposited data

How the results depend on the processing

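No paired analysis was possible because there was only 1 RetSat shRNA array. Across the 216 alternative values of the 24 receptor probe sets, none passed limma where a test was possible. Among the values that kept both empty-vector arrays, 5 reversed in sign, all near 0. With the arrays centred, Pdgfra 1438946_at reversed to 0.0156, Egfr 1451530_at to 0.0898 and Igf1r 1446303_at to 0.0527. With quantile normalization, Egfr 1451530_at reversed to 0.0697 and Igf1r 1446303_at to 0.15. Centring raised RetSat shRNA by 0.16 against empty vector 1 and by 0.03 against empty vector 2. Limma called 2 probe sets with centring, in Slc1a3 and Cblb, and 0 under the other settings. Receptor probe sets past the rule of size numbered 1 without the filter (Egfr) and 0 to 5 with either empty-vector array left out; those above the control arrays numbered 6 without the filter and 5 to 13 with an array left out, and those below 5 with 1 probe set per gene and 11 to 19 with an array left out. With an array left out there is no test, and the sign of the 12 probe sets that lie between the control arrays depends on which is kept. Those changes of sign are not among the 5 reversals, and some ended further from 0. Without empty vector 1, Igf1r 1428967_at went from 0.0987 to -0.4037. RetSat shRNA lay below empty vector 2 at 19 of 24 receptor probe sets after centring and after quantile normalization, against 45.7% and 49.9% of all tested. The medians of the receptors and of the 6 lists moved by less than the typical spread between the empty-vector arrays. Dim probe sets carry no detection call.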
